A study of Mus with 4 samples.

Results

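Imprinted genes of fetal growth were followed in the hearts of newborn mice with and without extra miR-187. The set comprised 10 genes that are expressed from only 1 parental copy in most fetal tissues: *H19*, *Igf2*, *Igf2r*, *Dlk1*, *Meg3*, *Cdkn1c*, *Peg3*, *Grb10*, *Mest* and *Plagl1*. They were picked by Ensembl gene ID, and all 10 were found among the 55487 gene IDs of the deposited table. All 10 also exceeded a mean of 1 FPKM (fragments per kilobase of transcript, scaled to the mapped fragments of the library), the limit for entering the test, which left 14325 genes. RNA-Seq had been performed on heart tissue at postnatal day 0 (P0), with 2 WT libraries and 2 miR-187 libraries. Per the study's methods, the miR-187–knockin (KI) mice were made on a C57BL/6J background, with a single copy of mmu-miR-187 inserted at the *Rosa26* site under the *Tek* (*Tie2*) promoter, which is active in endothelial cells. The methods name homozygous (KI/KI) animals at P0 for sequencing, whereas the labels give no zygosity. The methods also speak of cardiac endothelial cells, while the labels name the heart as the source, and the label is used here. Neither the tissue nor the transgene was checked with marker genes. These were listed by symbol, and beyond the 10 genes of the set no source used here pairs symbols with the deposited IDs.

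Genomic imprinting silences a gene on the chromosome inherited from 1 parent through DNA methylation laid down in the egg or sperm. Many paternally expressed genes promote the growth of the fetus, and many maternally expressed ones restrain it. In the fetal heart they set the supply of insulin-like growth factor 2, its removal, the response of the cell to growth factors and the exit of cardiomyocytes from the cell cycle, and most of them are turned down in the weeks after birth. Of the genes studied, *Igf2*, *Dlk1*, *Peg3*, *Mest* and *Plagl1* are expressed from the paternal copy and *H19*, *Igf2r*, *Meg3*, *Cdkn1c* and *Grb10* from the maternal copy. FPKM values add up the RNA of both copies, so they hold no information on imprinting itself.

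No difference between miR-187 and WT hearts was detected for any of the 10 genes. The values of the groups overlapped for 10 of 10 genes, whereas the groups did not overlap for 25.5% of all tested genes. The differences ran from -0.59 (*Grb10*) to 0.52 (*Cdkn1c*) on the log2(FPKM + 1) scale, with 4 genes higher and 6 lower in miR-187. Of all tested genes, 44.3% were higher. The median of the set was -0.09, beside -0.04 over all tested genes, and it moved to -0.54 without WT replicate 1 and to 0.29 without WT replicate 2. Each gene had an adjusted p of 1.00 after rounding (limma, Benjamini-Hochberg), and 0 of 10 had an unadjusted p under 0.05, against 3.12% of all tested genes. No gene of the set reached a 2-fold difference between groups, as 1.42% of tested genes did. Of the 14325 tested genes, 0.00698% passed an adjusted p of 0.05, namely 1 gene (ENSMUSG00000086429.9), which was lower in miR-187. That gene had 7.35 and 11.1 FPKM in WT and 0.33 and 0.69 in miR-187, and it was not matched to a symbol here. For 9 of the 10 genes, the exception being *Meg3*, the spread between libraries of the same group was above the median of all tested genes, by little for *Igf2*.

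The libraries differed in ways that the groups did not explain. Median FPKM over all IDs was 0.562 and 0.402 in replicate 1 of WT and miR-187 but 0.241 and 0.261 in replicate 2. The 10 most abundant IDs held between 32.3% and 47.5% of the FPKM sum of a library. IDs that reached 10 FPKM in a library and exceeded every other library by 10-fold or more numbered 16 in miR-187 replicate 2, 4 in WT replicate 2 and 0 in each replicate 1 library. Their part in the results was not tested. Nothing in the labels says that replicates came from separate animals, so p-values measure the spread between these libraries only. In whole tissue, fewer cells of a type and less RNA per cell cannot be told apart.

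*H19* and *Igf2*, neighbors on chromosome 7, were the most abundant of the set. *H19* (ENSMUSG00000000031.16, 142575530 to 142578146, mm10), a maternally expressed noncoding RNA that contains the precursor of miR-675, reached 283 and 662 FPKM in the WT libraries, compared with 498 and 512 in miR-187. Both miR-187 libraries thus lay between the WT libraries, and WT replicate 1 was the low one. It ranked between 98 and 211 among all IDs of a library. Mean FPKM was 472 ± 268 for WT, compared with 505 ± 10.3 for miR-187 (SD, n = 2 each). On the log2 scale they differed by 0.22 with a 95% interval from -0.75 to 1.19.

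*Igf2* (ENSMUSG00000048583.16, 142650768 to 142666816, mm10), which encodes the main growth factor of the fetus and is read from the paternal copy, lies 72.6 kb from *H19*. Its level was 117 and 132 FPKM in the WT libraries, compared with 103 and 162 in miR-187. The miR-187 libraries were therefore the lowest and the highest of the 4. This was the second steadiest gene of the set, with a highest-to-lowest ratio of 1.57. The log2 difference between groups was 0.06 with a 95% interval from -0.82 to 0.94. *Mir483* and *Igf2os* overlap *Igf2* in the RefSeq gene table, and as the use of strand in the counting is not given in the sources used here, their reads cannot be told apart from its own.

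*H19* on the maternal and *Igf2* on the paternal chromosome are driven by a common set of enhancers in cis, so their ratio was also taken within each library, where the scaling of the library cancels out. *H19* exceeded *Igf2* by 2.43-fold and 5.0-fold in WT and by 4.82-fold and 3.15-fold in miR-187. The ratio of WT replicate 1 was the lowest and that of WT replicate 2 the highest, with both miR-187 ratios between them. On the log2 scale the ratio was 1.80 ± 0.74 in WT and 1.96 ± 0.43 in miR-187 (SD, n = 2 each), a difference of 0.16 that was smaller than the spread within either group. Together both genes made up from 71.4% to 78.2% of the FPKM of the set.

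**Figure D1:**
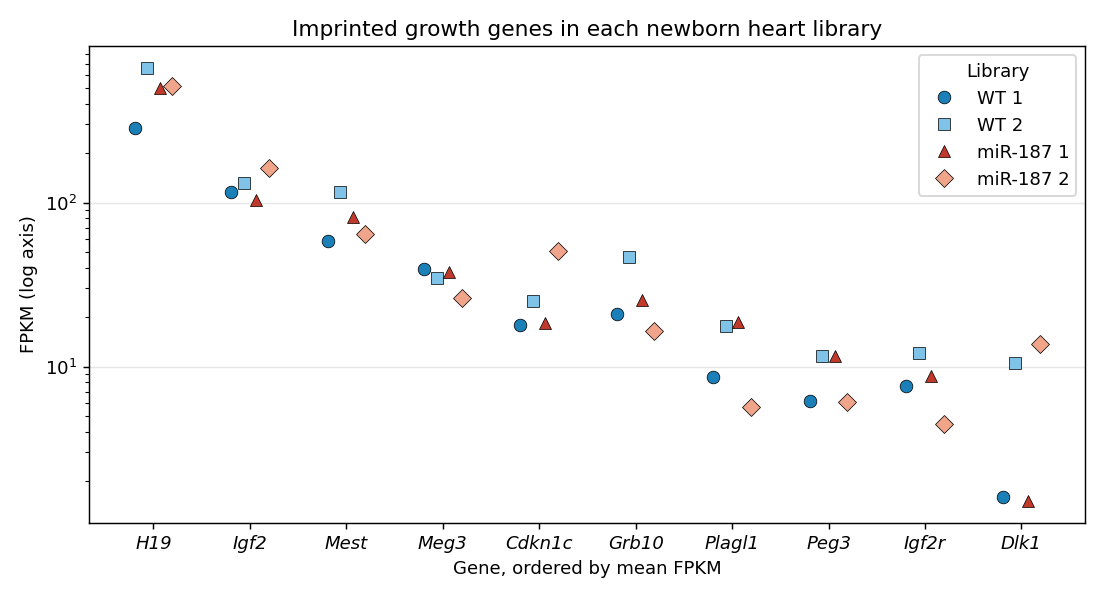
FPKM (log axis) of the 10 imprinted genes, ordered by mean level, in the 2 WT and the 2 miR-187 libraries, with 1 point per library. The groups overlap for every gene, and *Dlk1* lies near 1.5 FPKM in both replicate 1 libraries and above 10 FPKM in both replicate 2 libraries.

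*Igf2r*, the receptor that takes IGF2 to the lysosome and so limits its supply, was much lower than its ligand. It is maternally expressed in the mouse (ENSMUSG00000023830.14, chromosome 17, 12682406 to 12769706, mm10). WT libraries had 7.56 and 12.1 FPKM and miR-187 libraries 8.77 and 4.47, so miR-187 replicate 2 was lowest and miR-187 replicate 1 fell inside the WT range. The log2 difference was -0.53 with a 95% interval from -1.34 to 0.27. With *Grb10*, it was lower in miR-187 in all 13 alternative analyses. Changes of filter, variance model or design left the estimate as it was, but the size of the difference depended on each library. It was -0.12 without miR-187 replicate 2, -0.23 without WT replicate 2, -0.84 without WT replicate 1 and -0.95 without miR-187 replicate 1. *Airn*, the noncoding RNA that silences *Igf2r* on the paternal copy, overlaps it, and reads of both may be mixed.

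A further ratio was chosen after the values were seen. The excess of *Igf2* over *Igf2r* was 15.4-fold and 10.9-fold in WT and 11.8-fold and 36.3-fold in miR-187. The high value belonged to miR-187 replicate 2, where *Igf2* was at its highest and *Igf2r* at its lowest. The log2 ratio was 3.70 ± 0.35 in WT and 4.37 ± 1.15 in miR-187 (SD, n = 2 each), a difference of 0.67 that was larger than the SD of the WT libraries and smaller than that of the miR-187 libraries. The difference was -0.14 without miR-187 replicate 2, 0.42 without WT replicate 2, 0.92 without WT replicate 1 and 1.48 without miR-187 replicate 1.

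*Grb10* encodes an adaptor protein that dampens signaling from the insulin and IGF1 receptors (ENSMUSG00000020176.17, chromosome 11, 11930499 to 12037428, mm10). Its FPKM were 21.0 and 46.4 in the WT libraries, against 25.6 and 16.4 in miR-187. WT replicate 2 stood above the other libraries, and miR-187 replicate 1 lay within the WT range. Mean FPKM was 33.7 ± 18.0 for WT, compared with 21.0 ± 6.49 for miR-187 (SD, n = 2 each). This was the most negative difference of the set, -0.59 on the log2 scale with a 95% interval from -1.48 to 0.31. It was -0.03 when WT replicate 2 was left out and -1.14 when WT replicate 1 was.

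*Dlk1* was the most variable gene of the set and the lowest by mean level. It encodes a transmembrane protein with EGF-like repeats that is found in many fetal tissues, and it is paternally expressed (ENSMUSG00000040856.17, chromosome 12, 109452485 to 109463336, mm10). In replicates 1 and 2, it was measured at 1.61 and 10.5 FPKM for WT and at 1.51 and 13.8 for miR-187. Both replicate 1 libraries were low, and both replicate 2 libraries were high, with a highest-to-lowest ratio of 9.12. The replicate numbers also separated the median FPKM of all IDs given above, but there replicate 1 was the higher, and a part of this in the *Dlk1* values was not tested. Its rank among all IDs moved from 12405 and 12323 in the replicate 1 libraries to 3812 and 2814 in the replicate 2 libraries. The range over the 4 libraries, 2.56 on the log2 scale, was as large as or larger than that of 99.4% of tested genes. Between groups the log2 difference was 0.16 with a 95% interval from -1.12 to 1.43, in which limma had already drawn the variance of the gene toward that of genes at the same level. From its own libraries alone the standard error would be 1.67 in place of 0.61.

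*Meg3*, a maternally expressed noncoding RNA, begins 77.7 kb beyond *Dlk1* (ENSMUSG00000021268.17, 109540996 to 109571729, mm10) and did not share its pattern. Its WT values were 39.5 and 34.7 FPKM, and its miR-187 values were 37.6 and 26.3. This was the steadiest gene of the set, with a highest-to-lowest ratio of 1.51, and the only one in which WT replicate 2 was not among the 2 highest libraries. Its log2 difference was -0.23 with a 95% interval from -1.06 to 0.60. *Rtl1*, *Mir770* and *Mir1906-1* overlap *Meg3* in the RefSeq gene table.

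The ratio of *Meg3* to *Dlk1*, which depend on a shared imprinting control region, followed the replicate numbers. It was 24.6 in replicate 1 and 3.30 in replicate 2 of WT, and 24.8 in replicate 1 and 1.90 in replicate 2 of miR-187. The 2 replicate 1 libraries were nearly equal across groups. On the log2 scale the ratio was 3.17 ± 2.05 in WT and 2.78 ± 2.62 in miR-187 (SD, n = 2 each), and the difference of -0.39 was far smaller than either SD.

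**Figure D2:**
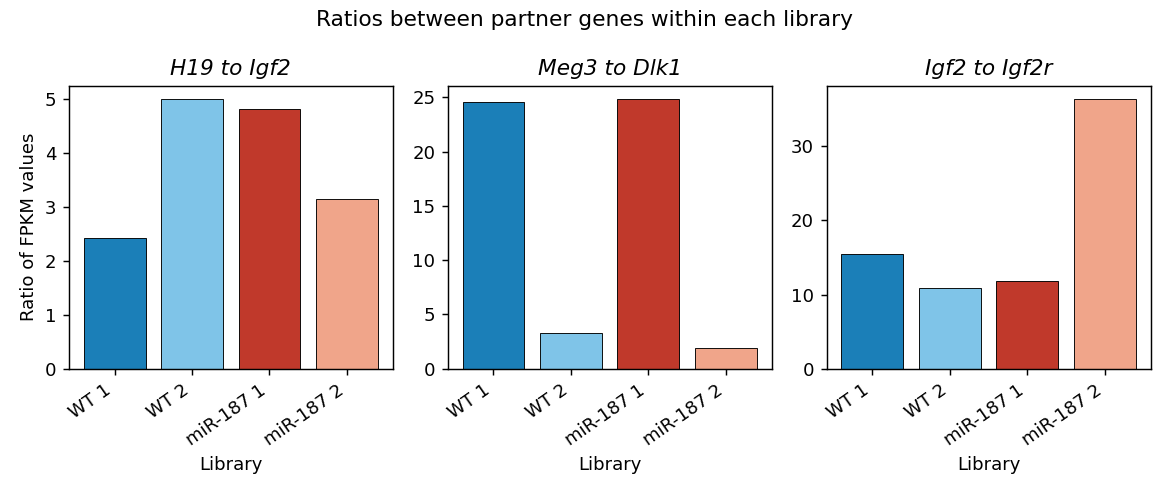
Ratio of FPKM values within each library (bars, from 0) for *H19* to *Igf2*, *Meg3* to *Dlk1* and *Igf2* to *Igf2r*, with 1 bar for each of the 4 libraries. The *Meg3* to *Dlk1* ratio is 24.6 and 24.8 in the replicate 1 libraries and 3.30 and 1.90 in the replicate 2 libraries, irrespective of group.

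*Cdkn1c* had the most positive difference of the set. It encodes p57Kip2, an inhibitor of cyclin-dependent kinases that helps cells leave the cell cycle, and is maternally expressed (ENSMUSG00000037664.13, chromosome 7, 143458339 to 143461059, mm10, 792 kb beyond *Igf2*). WT hearts had 17.8 and 25.0 FPKM, miR-187 hearts 18.3 and 50.8. The difference rested on miR-187 replicate 2, as miR-187 replicate 1 lay within the WT range. Mean FPKM was 21.4 ± 5.08 for WT, compared with 34.6 ± 23.0 for miR-187 (SD, n = 2 each). On the log2 scale the difference was 0.52 with a 95% interval from -0.41 to 1.44, and without miR-187 replicate 2 it was -0.19. As given above, 16 IDs stood out in that library, and their part in the *Cdkn1c* value was not tested.

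*Plagl1* and *Peg3* encode zinc finger proteins and are paternally expressed. *Plagl1*, also called *Zac1*, is a transcription factor known to act on other imprinted genes, among them *Igf2* and *H19* (ENSMUSG00000019817.18, chromosome 10, 13090832 to 13131694, mm10). Levels of 8.57 and 17.6 FPKM were found in WT, against 18.7 and 5.65 in miR-187. WT replicate 2 and miR-187 replicate 1 were thus high and the other two libraries low. The log2 difference between groups was -0.22 with a 95% interval from -1.18 to 0.73, composed of 1.04 for replicate 1 and -1.49 for replicate 2.

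*Peg3* (ENSMUSG00000002265.17, chromosome 7, 6703892 to 6730462, mm10) repeated that order with nearly equal values. Its replicates 1 and 2 had 6.13 and 11.5 FPKM for WT, then 11.5 and 6.09 for miR-187. Each group therefore contained 1 high and 1 low library, and the group means were 8.83 ± 3.82 and 8.82 ± 3.86 FPKM (SD, n = 2 each). This left a log2 difference of -0.003 with a 95% interval from -0.83 to 0.83. Its sign changed when libraries were rescaled by quantile normalization, by their medians or by the trimmed mean of M-values (TMM).

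*Mest*, which encodes a protein of the hydrolase fold and is paternally expressed (ENSMUSG00000051855.15, chromosome 6, 30733506 to 30748466, mm10), was present at 58.2 and 116 FPKM in the WT libraries, against 82.0 and 64.3 in miR-187. WT replicate 1 was lowest and WT replicate 2 highest, so both miR-187 libraries fell within the WT range. The log2 difference was -0.18 with a 95% interval from -1.08 to 0.73. *Copg2* and *Mir335* overlap it in the RefSeq gene table, as *Peg3os* does *Peg3*, *Hymai* does *Plagl1* and *LOC102631979* does *Grb10*.

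The genes were then compared by the libraries in which they were highest, a view chosen after the values were seen and given without a test. WT replicate 2 and miR-187 replicate 1 were the 2 highest libraries for 5 genes, *Igf2r*, *Peg3*, *Grb10*, *Mest* and *Plagl1*, and for 27.6% of all tested genes. WT replicate 2 and miR-187 replicate 2 were the highest for 4 genes, *H19*, *Igf2*, *Dlk1* and *Cdkn1c*, and for 11.2% of all tested genes. In *H19*, however, the miR-187 libraries differed by only 0.04 on the log2 scale, so its place in the second class rests on a small gap. *Meg3* was the remaining gene. Thus WT replicate 2 was among the 2 highest libraries for 9 of 10 genes, against 52.0% of all tested genes. MiR-187 replicate 2 was the lowest library for 5 genes and the highest for 3, against 39.1% and 17.3% of all tested genes. Summed over the set, FPKM were 560 and 1068 in WT and 805 and 862 in miR-187, equal to 0.0694% and 0.142% of the library sum in WT and 0.103% and 0.109% in miR-187.

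**Figure D3:**
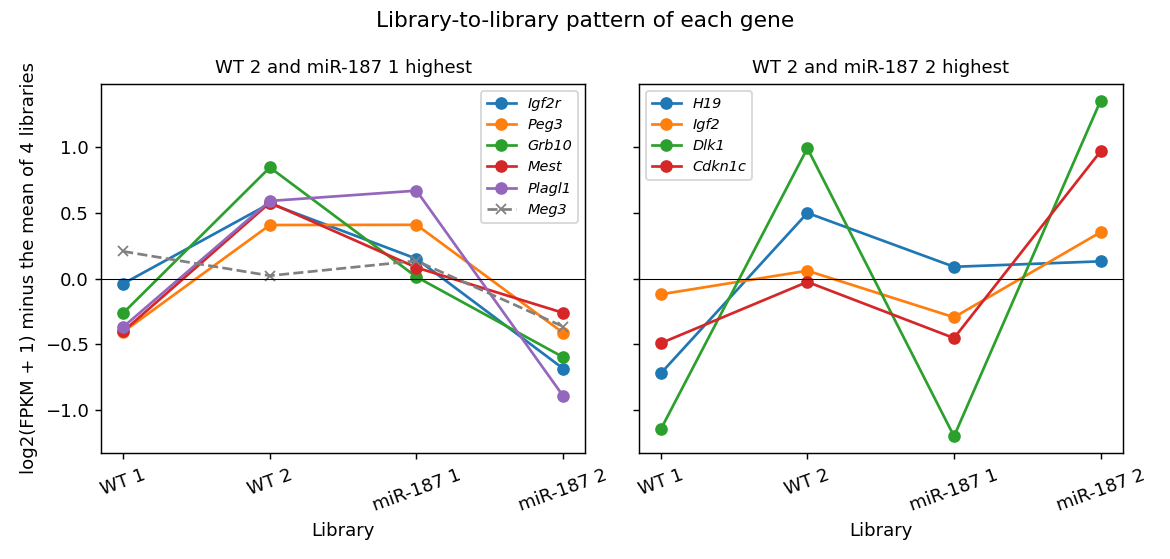
Deviation of each gene from its own mean over the 4 libraries on the log2(FPKM + 1) scale, by library. The left panel holds the 5 genes highest in WT replicate 2 and miR-187 replicate 1 together with *Meg3* (dashed), and the right panel holds the 4 genes highest in both replicate 2 libraries, with *Dlk1* moving from about -1.2 to above 0.9.

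Classes by parental copy did not separate. Of the 5 paternally expressed genes, 2 were higher and 3 lower in miR-187, with a median log2 difference of -0.003. Of the 5 maternally expressed genes, 2 were higher and 3 lower as well, with a median of -0.23. The maternal class held both ends of the range, *Grb10* and *Cdkn1c*. With 1 library left out, the paternal median ran from -0.67 without WT replicate 1, where 0 of 5 genes were higher, to 0.31 without WT replicate 2, where 5 of 5 were. The maternal median was lowest, at -0.48, without miR-187 replicate 1 and highest, at -0.03, without WT replicate 2.

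Differences were also taken within each replicate number. The labels do not say whether the numbers pair the libraries, so these differences only describe the values of single libraries. The miR-187 minus WT difference of replicate 1 and that of replicate 2 had the same sign for 2 of 10 genes, *Meg3* and *Cdkn1c*, whereas this held for 41.9% of all tested genes. For *H19*, *Mest*, *Peg3*, *Plagl1*, *Grb10* and *Igf2r*, miR-187 was higher than WT in replicate 1 and lower in replicate 2. For *Igf2* and *Dlk1* it was the reverse. The median over the set was 0.23 for replicate 1 and -0.60 for replicate 2, beside 0.07 and -0.14 over all tested genes.

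**Figure D4:**
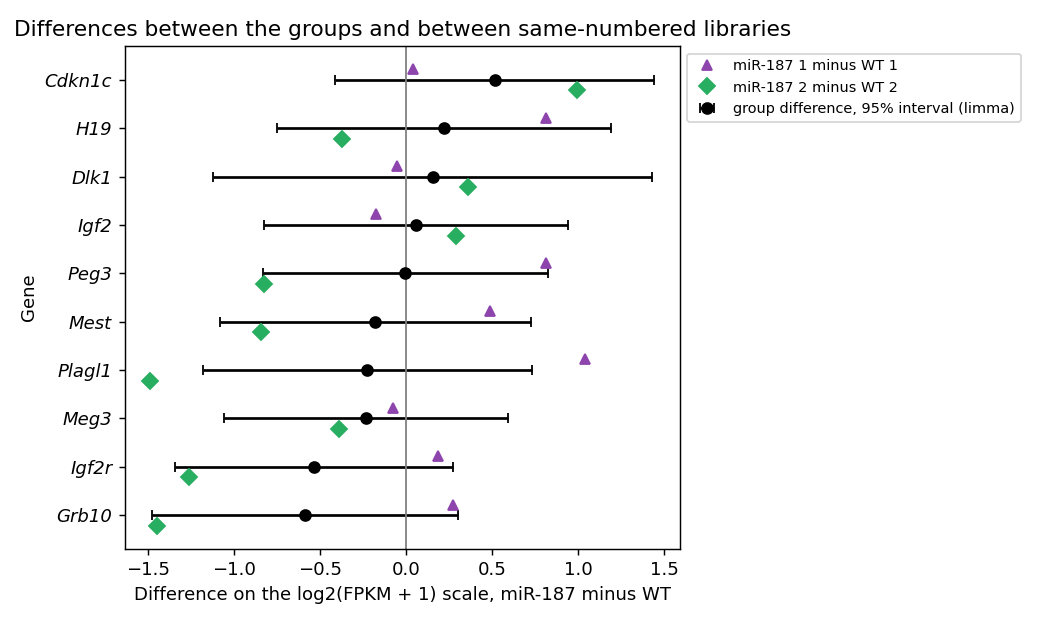
Difference between miR-187 and WT on the log2(FPKM + 1) scale for each gene (black points, with 95% intervals from limma), and the difference between same-numbered libraries, which the labels do not give as pairs (triangles for replicate 1, diamonds for replicate 2). All 10 intervals span 0, and the triangle and diamond lie on opposite sides of 0 for 8 of the genes.

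The spread between libraries of one group was wider for these genes than for most. The median within-group SD was 0.60 on the log2 scale, beside 0.31 over all tested genes, and 9 of 10 genes lay above the latter. The median was 0.33 over the 6192 genes whose mean reached 5 FPKM, as it did for all 10 imprinted genes. Among genes of 5 to 20 FPKM, 4 of 4 imprinted genes exceeded the median of 0.32, and among those of 20 to 100 FPKM, 3 of 4 exceeded 0.33. At 100 FPKM or more, where the median was 0.39, *H19* exceeded it and *Igf2* did not. *Dlk1* (1.67), *Plagl1* (0.92) and *Cdkn1c* (0.75) had the widest spread, and *Meg3* (0.27) and *Igf2* (0.34) the narrowest. *Dlk1* and *Plagl1* were above 99.7% and 98.3% of tested genes in this measure.

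**Figure D5:**
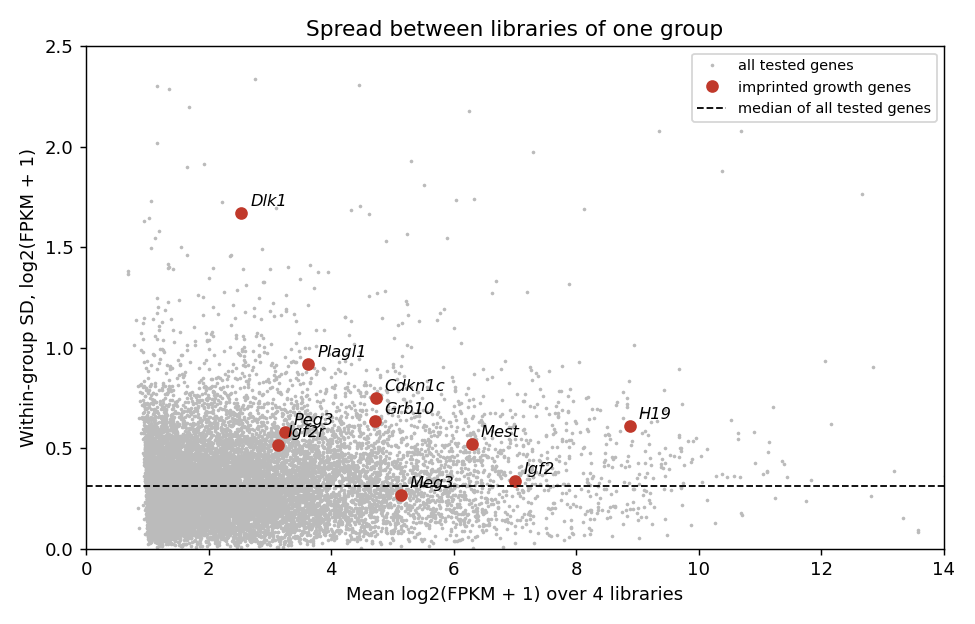
Within-group SD of log2(FPKM + 1), pooled over both groups, against the mean level for all 14325 tested genes (gray) and the 10 imprinted genes (red), with the median of all tested genes as a dashed line at 0.31. *Meg3* is the only imprinted gene under the line, and 14 genes lie above the upper end of the axis.

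The order of levels, which FPKM allows to be compared because it is per length, was *H19*, *Igf2*, *Mest*, *Meg3*, *Cdkn1c*, *Grb10*, *Plagl1*, *Peg3*, *Igf2r* and *Dlk1*. *H19* lay above *Igf2* and *Mest* above *Meg3* without overlap between any of the 4 libraries. *Igf2* was above *Mest* in 4 of 4 libraries, although their ranges overlapped, and the same held for *Grb10* and *Plagl1*. All other neighbors in this order overlapped and changed places in at least 1 library. By mean level over the 4 libraries, the set ran from the 65.5th percentile of tested genes for *Dlk1* to the 99.1st for *H19*.

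With 2 libraries per group, an exact permutation test of 1 gene cannot give a p below 0.33, so limma was the test used. The 95% intervals reached past a 2-fold change, a log2 difference of 1 in size, in at least 1 direction for 8 of the 10 genes. Those of *Igf2* and *Peg3* did not. Across the 13 alternatives, the interval passed 2-fold in all 13 for *H19*, *Igf2r*, *Cdkn1c* and *Plagl1*, in 12 for *Grb10*, in 11 each for *Dlk1*, *Meg3* and *Mest*, in 5 for *Igf2* and in 4 for *Peg3*.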

How the data were processed

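RNA-Seq was performed on 4 heart libraries from mice at postnatal day 0, 2 WT and 2 miR-187, grouped by the sample titles. Per the labels, total RNA was extracted with TRIzol and made into mRNA libraries that were sequenced in paired-end mode. The authors deposited 1 table of FPKM values, 1 column per library. The submitters' processing notes name HISAT2, StringTie, DESeq2 and mm10, and the annotation, the software versions and the use of strand are not given in the sources used here. FPKM divides by gene length and mapped total, so abundant transcripts can lower all other values of a library. Low values came in no whole-read steps (the most common ratio between the WT libraries was shared by 0.271% of 9958 low IDs), so the depth is unknown, and no interval based on depth is given.

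Members were matched by Ensembl ID without the version suffix. Positions came from a RefSeq gene table for GRCm38.p6 (the assembly of mm10), in which 10 of 10 members were found by symbol. That table held 0 Ensembl IDs, so 4 further gene lists and 13 marker lists (171 symbols) were not analysed here. Sequences were not used here.

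Values were taken as log2(FPKM + 1), and a gene was tested if its mean reached 1 FPKM. The test was limma 3.58.1 in R 4.3.3 (lmFit, eBayes with a trend, no replicate block, two-sided, Benjamini-Hochberg over 14325 genes, threshold 0.05). Fold changes on this scale understate those of low genes. The procedure was run on simulated data, in which every change put in was larger than any group difference of the set. Whether it would detect differences of their size was therefore not tested. Alternatives changed the pseudocount to 0.1, the minimum mean to 0.1 or 5 FPKM or to none, the scaling (library medians, quantiles, or unweighted TMM factors with 30% and 5% trimmed), the variance model (no trend), the design (a replicate block) and the libraries (each left out in turn). Figures were drawn with matplotlib 3.10.9. All 10 members are named. The members and lists were chosen with earlier results of these data known.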

Additional observations from a re-analysis of the deposited data

How the results depend on the processing

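Of the 10 imprinted genes, 0 were called under any of the 13 alternatives. *Grb10* and *Igf2r* were lower in miR-187 throughout, though with 1 library left out their log2 differences ran from -1.14 to -0.03 and from -0.95 to -0.12, while 8 genes changed direction at least once. Of 130 values, 115 kept their direction and 15 reversed, 12 of these with a library left out and 3 by scaling. The scaling moved *Peg3* from -0.003 to 0.034 (median centring), 0.031 (TMM) and 0.062 (quantile normalization). The changed filters, the fit without a trend and the replicate block left every estimate as it was, so these values could not reverse. With 1 library left out, the log2 difference ran from -0.39 to 0.83 for *H19*, from -0.26 to 0.38 for *Igf2*, from -1.12 to 1.43 for *Dlk1*, from -0.48 to 0.021 for *Meg3* and from -0.19 to 1.23 for *Cdkn1c*. It ran from -0.41 to 0.41 for *Peg3*, from -0.67 to 0.31 for *Mest* and from -1.01 to 0.56 for *Plagl1*. The difference in the log2 *H19* to *Igf2* ratio ran from -0.36 to 0.69 and that of *Meg3* to *Dlk1* from -2.24 to 1.46. For *Igf2* to *Igf2r*, a ratio chosen after seeing the data, it ran from -0.14 to 1.48.

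Over all genes, 31 genes were called higher and 15 lower when the minimum mean was 0.1 FPKM, and 33 and 18 with the replicate block. The called gene was lost, leaving 0 lower genes, with a minimum mean of 5 FPKM, without a filter and with quantile normalization. Its mean lay under 5 FPKM, so at that limit it was not tested at all. In the other settings named it was tested and not called. Leaving out the filter also changed the number of genes tested, and the cause of these 2 losses was not tested. With 1 library left out, from 11 to 62 genes were called higher and from 14 to 56 lower, with both low ends when miR-187 replicate 2 was omitted and the high ends on omission of miR-187 replicate 1 and WT replicate 1, respectively. In those fits, as with the block and the minimum mean of 0.1 FPKM, limma estimated infinite prior degrees of freedom, which replaces the variance of each gene by that of the trend. With a library left out, the lone library was assumed to vary like the other group. Deviations of same-numbered libraries correlated with r = -0.07 across genes, and the labels state no pairing. Replicate numbers were therefore treated as names, and whether they mark pairs was not tested. Depth limits cannot be given.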
